A study of Homo sapiens with 2 samples.

Results

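The mRNAs of 9 genes that write, erase or read DNA methylation were followed in G401 cells, a human cell line derived from a kidney rhabdoid tumor, after CRISPR targeting of the homeobox gene HOXB13. The genes were taken by name: the DNA methyltransferases DNMT1, DNMT3A and DNMT3B, the paralogs UHRF1 and UHRF2, the dioxygenases TET1, TET2 and TET3, and the methyl-CpG binding protein MBD2. All 9 of 9 were found on 1 row each among the 23452 gene symbols with a value, and all 9 reached 1 FPKM (fragments scaled by transcript length and library size) in each library. The data held 1 library from G401 cells with a guide RNA against HOXB13 and 1 library from G401 cells with a control guide. Per the labels, both cultures were grown in RPMI with 15% serum and harvested at 80% confluency. The series asked what loss of HOXB13 does to the transcriptome. A single guide against HOXB13 was used. Whether the cells were a pool or a clone, and how Cas9 was delivered, is not given in the sources used here. With 1 library per group no difference had a replicate check, no test was possible and no p-value is given, so the guide cannot be told apart from any other difference between the 2 cultures.

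In mammalian cells the cytosine of CpG dinucleotides carries methyl groups that DNMT3A and DNMT3B place de novo and that DNMT1 copies onto the new strand after replication. UHRF1 binds the hemimethylated CpG left behind the replication fork and brings DNMT1 to it, through its SRA domain and through ubiquitin that it places on histone H3 and on the PCNA-associated factor PAF15. TET enzymes oxidise 5-methylcytosine, which leads to its dilution or to its removal by base excision repair, and MBD2 binds methylated CpG and recruits the NuRD deacetylase complex. DNMT1 and UHRF1 are known as genes of proliferating cells. No methylation was measured here, so the values below concern the mRNAs of this machinery alone.

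Small FPKM values came in steps of whole reads, which put the depth near 23.6 M reads with the HOXB13 guide and 24.1 M with the control guide. HOXB13 itself stood at 4.50 FPKM with its guide and at 14.6 FPKM with the control guide, a fold of 0.309. The exact 95% interval of this fold, 0.273 to 0.349, covers counting error alone, as do all intervals below. SMARCB1, the SWI/SNF subunit lost in most rhabdoid tumors, had 0.0577 FPKM with the HOXB13 guide and 0.113 FPKM with the control guide, while VIM, which encodes vimentin, had 568 FPKM with the HOXB13 guide and 560 FPKM with the control guide. KRT8 and KRT18, simple epithelial keratins, had 1810 and 1572 FPKM with the HOXB13 guide and 1273 and 1023 FPKM with the control guide. Their log2 ratios were 0.51 and 0.62. The epithelial markers CDH1 and EPCAM lay the other way. CDH1, which encodes E-cadherin, had 1.28 FPKM with the HOXB13 guide and 32.3 FPKM with the control guide (log2 −3.87). EPCAM had 5.72 FPKM with the HOXB13 guide and 8.68 FPKM with the control guide (log2 −0.53). The cultures thus differed in a marker of the line, whose part in the values below was not tested. None of 7 endothelial markers reached 1 FPKM in either library, and their summed level was 0.206 FPKM with the HOXB13 guide and 0.0422 FPKM with the control guide. Of 10 leukocyte and blood markers 9 stayed below 1 FPKM in both libraries, with CD3E, MS4A1 and HBB listed at 0 in both. The exception was the lysosomal gene CD68, at 111 FPKM with the HOXB13 guide and 102 FPKM with the control guide, which cells other than macrophages also express.

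UHRF1 and DNMT1 share a sequence feature in front of their coding regions. Their start-site windows hold the 8-base word of the E2F factors, which switch on genes for S phase. The word was searched as TTTCCCGC, TTTGGCGC, TTTCGCGC and TTTGCCGC on both strands of each RefSeq window (250 bases before to 50 after a start site, GRCh38.p14). The 3 matches are shown as 30-base stretches, read 5′ to 3′ on the strand of the gene, with the matched bases in capitals; GCGGGAAA and GCGCGAAA are the words read on the opposite strand.
DNMT1, chr19:10194937-10194966, minus strand: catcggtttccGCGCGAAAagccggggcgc
UHRF1, first start site, chr19:4909476-4909505, plus strand: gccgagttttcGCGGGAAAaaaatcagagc
UHRF1, second start site, chr19:4909973-4910002, plus strand: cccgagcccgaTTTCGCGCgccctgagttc

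The UHRF1 match at the first start site lies 14 to 7 bases before it, the match at the second lies 160 to 153 bases before it, and the DNMT1 match spans the start site itself. The 250 bases before the second UHRF1 start site overlap no GENCODE exon and show the setting of the match, a stretch with 32 CpG dinucleotides.
UHRF1, chr19:4909894-4910143, plus strand: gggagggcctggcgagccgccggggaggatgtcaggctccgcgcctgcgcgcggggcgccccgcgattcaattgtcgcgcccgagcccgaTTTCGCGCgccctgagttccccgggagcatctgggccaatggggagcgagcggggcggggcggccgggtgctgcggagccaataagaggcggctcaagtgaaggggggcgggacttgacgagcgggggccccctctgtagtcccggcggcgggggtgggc

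Of the 9 genes, 2 held the word in at least 1 of their windows, against 3.99% of the 27305 genes with a window and 3.31% of all 35116 windows. The words were chosen after the expression values were known, and a match is a description of the letters, not of binding. The 7 other genes (DNMT3A, DNMT3B, UHRF2, TET1, TET2, TET3 and MBD2) had no match in their windows. The single DNMT3B window starts 17467 bases inside the annotated gene and holds 3 CpG, whereas the DNMT1 window holds 30 and the 3 UHRF1 windows 36, 40 and 46, so the DNMT3B window does not cover the start of that gene. The 3 UHRF1 windows also lie inside the annotated gene, 6421, 7064 and 7287 bases from its outermost start, so they show internal annotated start sites and not that outermost one. Likewise the 2 TET3 windows lie 1279 and 19061 bases inside the annotated gene, so its outermost start was not searched. The median over all windows was 14 CpG.

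UHRF1 had the largest ratio between the libraries among the 9 genes. The gene lies on chromosome 19 (hg19 chr19:4909510-4962165) and stood at 34.4 FPKM with the HOXB13 guide and 9.65 FPKM with the control guide, 3.56-fold higher (interval 3.24 to 3.91). On the log2(FPKM + 1) scale, which draws low values together, the ratio was 1.73, and 2.40% of the 11970 genes tested (those with at least 1 FPKM in either library) had a ratio as far from 0 in either direction. Among genes at 1 FPKM or more, UHRF1 stood above 78.7% of them in the HOXB13-guide library and above 42.2% in the control-guide library.

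The paralog UHRF2, which has the same domains and does not replace UHRF1 in maintenance methylation, lay the other way. UHRF2 (chr9:6413151-6507051) had 10.1 FPKM with the HOXB13 guide and 13.6 FPKM with the control guide, a log2 ratio of −0.40 and a fold of 0.738 (interval 0.589 to 0.918), short of the 2-fold rule of size. The order of the paralogs therefore differed between the libraries. UHRF1 was 3.42 times UHRF2 in the HOXB13-guide library and 0.709 times UHRF2 in the control-guide library, both in FPKM.

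Of the de novo methyltransferases, DNMT3B was past 2-fold and DNMT3A was not. DNMT3B, whose mutation causes a syndrome of immunodeficiency and centromeric instability (ICF), lies at chr20:31350191-31397162. It had 11.0 FPKM with the HOXB13 guide and 4.29 FPKM with the control guide, 2.57-fold higher (interval 2.20 to 3.03), with a log2 ratio of 1.19 that 5.76% of tested genes matched or passed in size. DNMT3A (chr2:25455830-25565459) had 3.05 FPKM with the HOXB13 guide and 2.54 FPKM with the control guide, and its interval, 0.908 to 1.59, included equal levels. DNMT3B was 3.62 times DNMT3A in the HOXB13-guide library and 1.69 times DNMT3A in the control-guide library. DNMT3B was thus the higher of the pair in each library.

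DNMT1, the maintenance enzyme, was the highest of the 9 genes in both libraries. It lies at chr19:10244022-10305755 and had 34.6 FPKM with the HOXB13 guide and 24.6 FPKM with the control guide, 1.41-fold higher (interval 1.34 to 1.48). The log2 ratio of 0.48 lay below the rule of size, and 34.2% of tested genes had a ratio at least as far from 0. UHRF1 was at 0.993 of the DNMT1 level in the HOXB13-guide library and at 0.393 of it in the control-guide library. The enzyme and the protein that brings it to hemimethylated CpG were therefore close in mRNA level in the HOXB13-guide library and apart in the control-guide library.

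**Figure D1:**
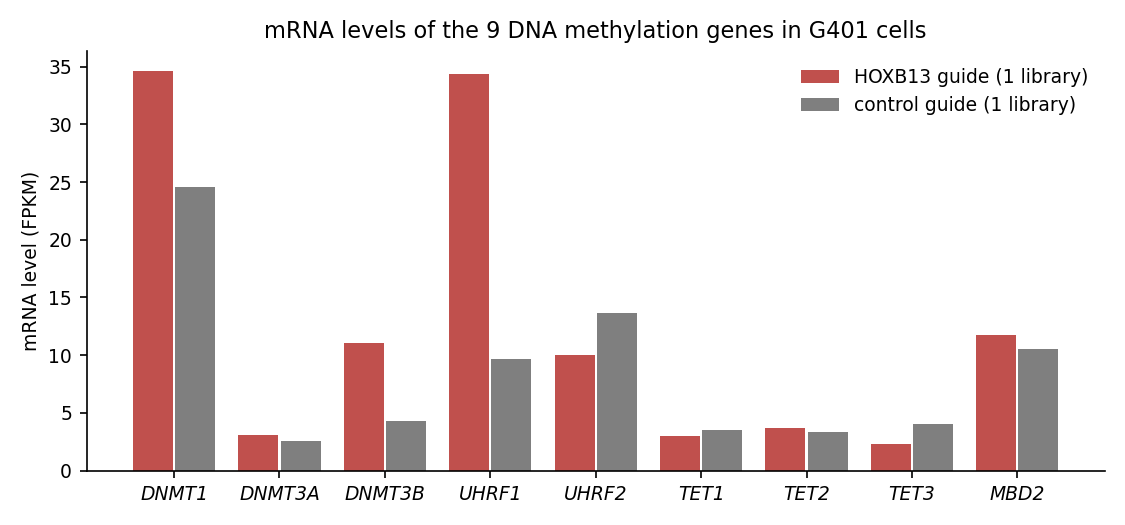
Level of each of the 9 genes in FPKM (vertical axis, linear from 0), with the HOXB13-guide library on the left of each pair and the control-guide library on the right, 1 library each and so no error bar. UHRF1 stands at 34.4 FPKM with the HOXB13 guide and 9.65 FPKM with the control guide, DNMT3B at 11.0 FPKM with the HOXB13 guide and 4.29 FPKM with the control guide, while the TET genes lie between 2.31 and 4.01 FPKM in both libraries.

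The TET genes were low in both libraries, and none passed 2-fold. TET3 (chr2:74273450-74335302) had 2.31 FPKM with the HOXB13 guide and 4.01 FPKM with the control guide, a fold of 0.575 (interval 0.495 to 0.671) and a log2 ratio of −0.60, which 24.9% of tested genes matched or passed in size. TET1 (chr10:70320117-70454239), which carries a CXXC domain for unmethylated CpG, had 2.96 FPKM with the HOXB13 guide and 3.54 FPKM with the control guide, a fold of 0.838 (interval 0.753 to 0.932). TET2 (chr4:106067032-106200960), which lacks that domain, had 3.69 FPKM with the HOXB13 guide and 3.32 FPKM with the control guide, and its interval, 0.963 to 1.28, included equal levels. From high to low the order was TET2, TET1, TET3 in the HOXB13-guide library and TET3, TET1, TET2 in the control-guide library. TET1 and TET2 were close in the control-guide library, and no counting error was computed for an order between genes. TET3 was 0.626 times TET2 in the HOXB13-guide library and 1.21 times TET2 in the control-guide library.

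Summed over each family, the 3 methyltransferases had 48.7 FPKM with the HOXB13 guide and 31.4 FPKM with the control guide, and the 3 TET genes had 8.96 FPKM with the HOXB13 guide and 10.9 FPKM with the control guide. The sum of the writers was 5.44 times that of the erasers in the HOXB13-guide library and 2.89 times in the control-guide library. Most of the writer sum was DNMT1 in each library, which was 2.46 times DNMT3A and DNMT3B together in the HOXB13-guide library and 3.60 times in the control-guide library.

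MBD2 (chr18:51677971-51751158), the reader, had 11.8 FPKM with the HOXB13 guide and 10.5 FPKM with the control guide, and its interval, 0.939 to 1.34, included equal levels. Its paralog MBD3, which is the other MBD subunit of NuRD and binds methylated DNA weakly, was named after its values were seen and had 34.7 FPKM with the HOXB13 guide and 37.6 FPKM with the control guide. MBD2 was thus the lower of the pair in both libraries, at 0.339 of MBD3 with the HOXB13 guide and 0.280 of it with the control guide.

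By count, 2 of the 9 genes (UHRF1 and DNMT3B) were higher by 2-fold or more with the HOXB13 guide and 0 were lower by 2-fold or more, on the rule of size. The share of all 11970 tested genes was 4.25% for higher, 4.51% for lower and 8.76% for either direction. The median log2 ratio of the 9 was 0.15, beside −0.05 over all tested genes. By sign, 6 of the 9 lay above 0 and 3 below, beside 5456 above and 6514 below among all 11970 tested genes. Of the 9, DNMT3A, TET2 and MBD2 lay above 0 and TET1 below it within the middle 50% of tested genes, which ran between −0.38 and 0.29. The count of 2 stands on few genes, and DNMT3B was below 2-fold with a pseudocount of 5 FPKM (log2 0.79), where UHRF1 stayed past it (log2 1.43).

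**Figure D2:**
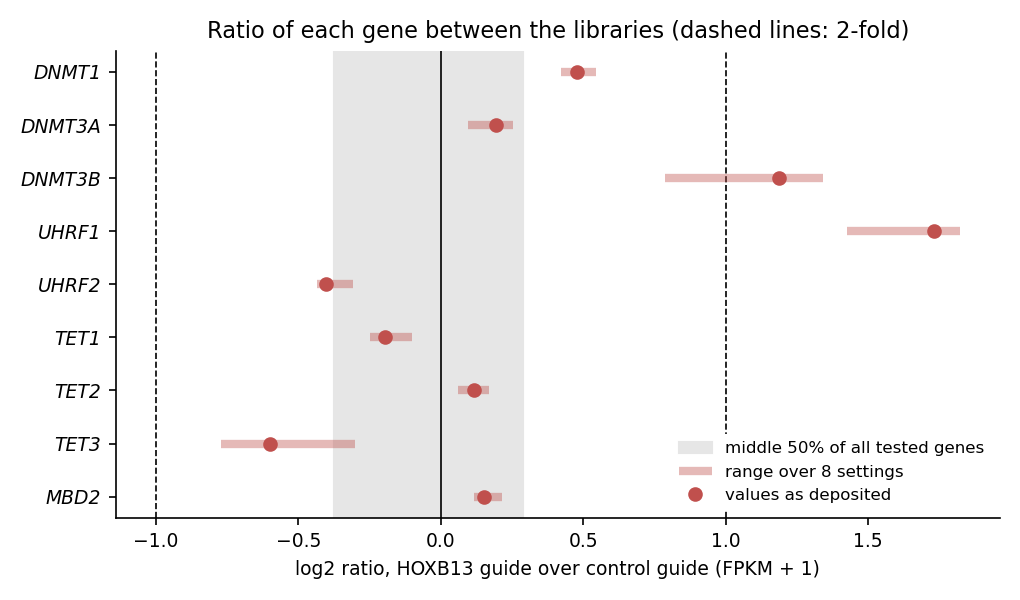
Log2 ratio of each of the 9 genes, HOXB13 guide over control guide, on FPKM + 1 (horizontal axis), with the value as deposited as a point and the range over 8 settings of pseudocount, scaling and row handling as a bar. The grey band is the middle 50% of all tested genes, −0.38 to 0.29, and UHRF1 (1.73) and DNMT3B (1.19) are the points beyond the dashed line at 2-fold.

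Genes that replicate DNA were higher along with UHRF1 and DNMT3B. Of 35 listed DNA replication and G1/S genes, all tested, 15 were higher by 2-fold or more with the HOXB13 guide (background 4.25%) and 0 were lower by that much. Their median log2 ratio was 0.89, with 33 of 35 above 0, beside 5456 of all 11970 tested genes. With a pseudocount of 5 FPKM, 8 of the 35 were higher by 2-fold or more. The ribonucleotide reductase subunits RRM1 and RRM2, which make deoxynucleotides, had 70.2 and 40.2 FPKM with the HOXB13 guide and 22.1 and 12.2 FPKM with the control guide. The replicative helicase subunits MCM4 and MCM7 had 60.1 and 106 FPKM with the HOXB13 guide and 20.1 and 37.1 FPKM with the control guide. The UHRF1 ratio of 1.73 was above those of all 35 genes, whose highest was 1.65, the DNMT3B ratio was above 25 of them and the DNMT1 ratio above 6. This ranking depends on the list and takes no account of counting error. PCNA, LIG1 and KIAA0101, which also act at the replication fork, were listed with the methyltransferase partners below and not among the 35. The KIAA0101 ratio of 2.26 was above that of UHRF1, and those of LIG1 (1.66) and PCNA (1.53) were below it. UHRF2, TET1 and TET3 lay below all 35, whose lowest ratio was −0.11. In bulk RNA a larger share of cells in S phase and more RNA per cell cannot be told apart, and the part of the cell cycle in the UHRF1 and DNMT3B values was not tested. Of the 29 replication genes with a start-site window, 15 (51.7%) held an E2F word of the kind shown above, against 3.99% of all genes. Each searched word contains a CpG and the genes compared were not matched for CpG content. A part of E2F in these ratios was not tested.

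**Figure D3:**
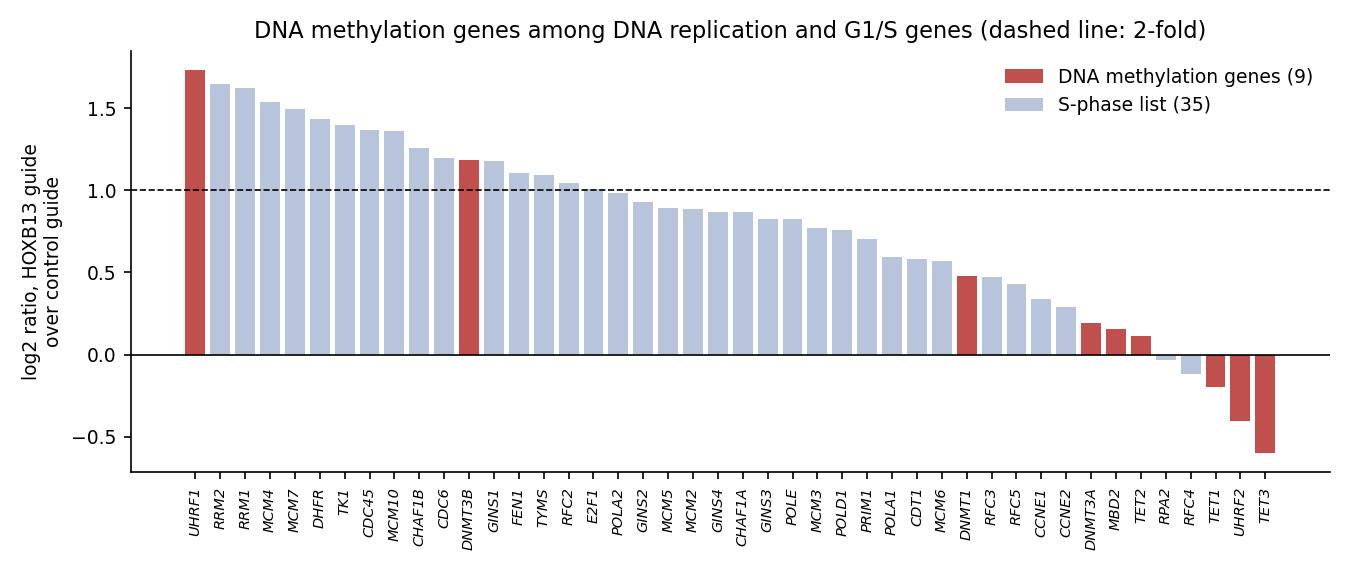
Log2 ratio, HOXB13 guide over control guide, on FPKM + 1 (vertical axis) of the 9 DNA methylation genes (red) ranked among 35 DNA replication and G1/S genes (pale blue). UHRF1 at 1.73 is above all 35, DNMT3B at 1.19 and DNMT1 at 0.48 are inside their range, and TET1, UHRF2 and TET3 are below it. PCNA, LIG1 and KIAA0101 (log2 2.26, above UHRF1) are on the list of partners and are not drawn here.

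Set against PCNA, the sliding clamp of the replication fork that DNMT1 and PAF15 bind, the 3 genes differed. UHRF1 was at 0.184 of PCNA in the HOXB13-guide library and 0.151 of it in the control-guide library. DNMT3B was at 0.0592 of PCNA with the HOXB13 guide and 0.0670 with the control guide. DNMT1 was at 0.186 of PCNA with the HOXB13 guide and 0.384 with the control guide, so that DNMT1 per PCNA was 0.484 of the control-guide value. These values depend on the reference: PCNA had a log2 ratio of 1.53, above the replication-list median of 0.89 and near its maximum of 1.65.

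Partners of the methyltransferases were mixed, with KIAA0101, LIG1, PCNA and HELLS higher in the HOXB13-guide library and CDCA7L lower. Of 13 listed partners and cofactors, all tested, 4 were higher and 1 was lower by 2-fold or more (backgrounds 4.25% and 4.51%), with a median log2 ratio of 0.44. KIAA0101, which encodes PAF15, the PCNA-bound substrate of UHRF1, had 62.2 FPKM with the HOXB13 guide and 12.2 FPKM with the control guide (log2 2.26). LIG1, the replicative DNA ligase that UHRF1 also binds, had 22.5 FPKM with the HOXB13 guide and 6.45 FPKM with the control guide (log2 1.66), and PCNA had 187 FPKM with the HOXB13 guide and 64.0 FPKM with the control guide (log2 1.53). The fourth was HELLS, a chromatin remodeler needed for methylation of repeats and itself an ICF syndrome gene, at 21.8 FPKM with the HOXB13 guide and 8.64 FPKM with the control guide (log2 1.25). CDCA7, the partner that brings HELLS to chromatin, had 42.7 FPKM with the HOXB13 guide and 24.1 FPKM with the control guide, short of 2-fold (log2 0.80). Its paralog CDCA7L, a MYC-interacting protein, was the lower member, at 34.2 FPKM with the HOXB13 guide and 123 FPKM with the control guide (log2 −1.82). HELLS and CDCA7 were named after their values were seen.

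Genes listed for base excision and demethylation, which include general DNA repair genes, went both ways. Of 19 listed genes of base excision and demethylation 17 were tested, with 4 higher and 2 lower by 2-fold or more (backgrounds 4.25% and 4.51%) and a median log2 ratio of 0.25. APOBEC3B, a cytidine deaminase, had 16.9 FPKM with the HOXB13 guide and 1.35 FPKM with the control guide (log2 2.93), although reads of the near-identical APOBEC3 copies are uncertain between them. The uracil glycosylase UNG had 42.0 FPKM with the HOXB13 guide and 18.5 FPKM with the control guide, and the glycosylase NEIL2 had 15.2 FPKM with the HOXB13 guide and 6.29 FPKM with the control guide. NTHL1, a glycosylase for oxidised pyrimidines named after its values were seen, was the fourth, with 5.55 FPKM with the HOXB13 guide and 2.12 FPKM with the control guide. The stress-inducible genes GADD45A and GADD45B, which have been linked to active demethylation, were the lower ones: GADD45A had 24.5 FPKM with the HOXB13 guide and 57.0 FPKM with the control guide (log2 −1.19), and GADD45B, named after its values were seen, had 28.8 FPKM with the HOXB13 guide and 59.7 FPKM with the control guide (log2 −1.03). TDG, which excises the oxidised bases that TET enzymes make and was also named after its values were seen, had 18.8 FPKM with the HOXB13 guide and 19.6 FPKM with the control guide.

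The TET enzymes need 2-oxoglutarate. A list of 18 genes covered the cofactor, its antagonists and TET-binding proteins, and also held the CXXC-domain gene CXXC1, a CpG reader. Of these, 17 were tested, with 1 higher and 0 lower by 2-fold or more (backgrounds 4.25% and 4.51%) and a median log2 ratio of 0.15. The higher gene was OGDH, which consumes 2-oxoglutarate in the citrate cycle, at 47.9 FPKM with the HOXB13 guide and 22.3 FPKM with the control guide (log2 1.07). SDHA, a subunit of succinate dehydrogenase, which removes the TET inhibitor succinate, had 81.7 FPKM with the HOXB13 guide and 41.6 FPKM with the control guide (log2 0.96). OGT, the sugar transferase that binds TET proteins, had 22.6 FPKM with the HOXB13 guide and 41.7 FPKM with the control guide (log2 −0.85), and the TET2-binding CXXC4 had 0.957 FPKM with the HOXB13 guide and 2.83 FPKM with the control guide (log2 −0.97).

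Other readers and the NuRD complex had no gene past 2-fold (background 8.76% in either direction). Of 14 other genes listed as readers of methylated or unmethylated CpG or for an MBD domain, 13 were found and tested. Their median log2 ratio was −0.11, with 10 of 13 below 0, beside 6514 of all 11970 tested genes. The remaining entry was CFP1, another name of CXXC1, which was counted with the TET list instead. CXXC1 had 11.5 FPKM with the HOXB13 guide and 8.06 FPKM with the control guide (log2 0.46). SETDB2, a histone methyltransferase gene with an MBD domain, had 10.3 FPKM with the HOXB13 guide and 19.3 FPKM with the control guide (log2 −0.85), and KDM2B, a CXXC-domain demethylase, had 15.1 FPKM with the HOXB13 guide and 9.88 FPKM with the control guide (log2 0.56). The H3K9 methyltransferase SETDB1 had 11.4 FPKM with the HOXB13 guide and 15.7 FPKM with the control guide, and the CXXC-domain H3K4 methyltransferase MLL had 6.71 FPKM with the HOXB13 guide and 4.46 FPKM with the control guide. All 12 NuRD subunits were tested, with a median log2 ratio of 0.23. Its ATPases CHD3 and CHD4 had 15.2 and 113 FPKM with the HOXB13 guide and 9.56 and 78.6 FPKM with the control guide, and the histone-binding subunits RBBP4 and RBBP7 had 41.2 and 104 FPKM with the HOXB13 guide and 29.9 and 71.0 FPKM with the control guide.

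The methionine cycle, which supplies the methyl donor S-adenosylmethionine, had 12 of 16 listed genes tested, with 0 higher and 1 lower by 2-fold or more (backgrounds 4.25% and 4.51%) and a median log2 ratio of 0.05. MAT2A, which makes S-adenosylmethionine, had 65.5 FPKM with the HOXB13 guide and 106 FPKM with the control guide (log2 −0.69). The lower member was AHCYL2, a relative of adenosylhomocysteinase, at 15.1 FPKM with the HOXB13 guide and 74.6 FPKM with the control guide (log2 −2.23). Its paralog AHCYL1, which regulates the IP3 receptor, had 69.8 FPKM with the HOXB13 guide and 40.4 FPKM with the control guide (log2 0.77), and the spermine synthase gene SMS had 63.6 FPKM with the HOXB13 guide and 35.4 FPKM with the control guide (log2 0.83).

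**Figure D4:**
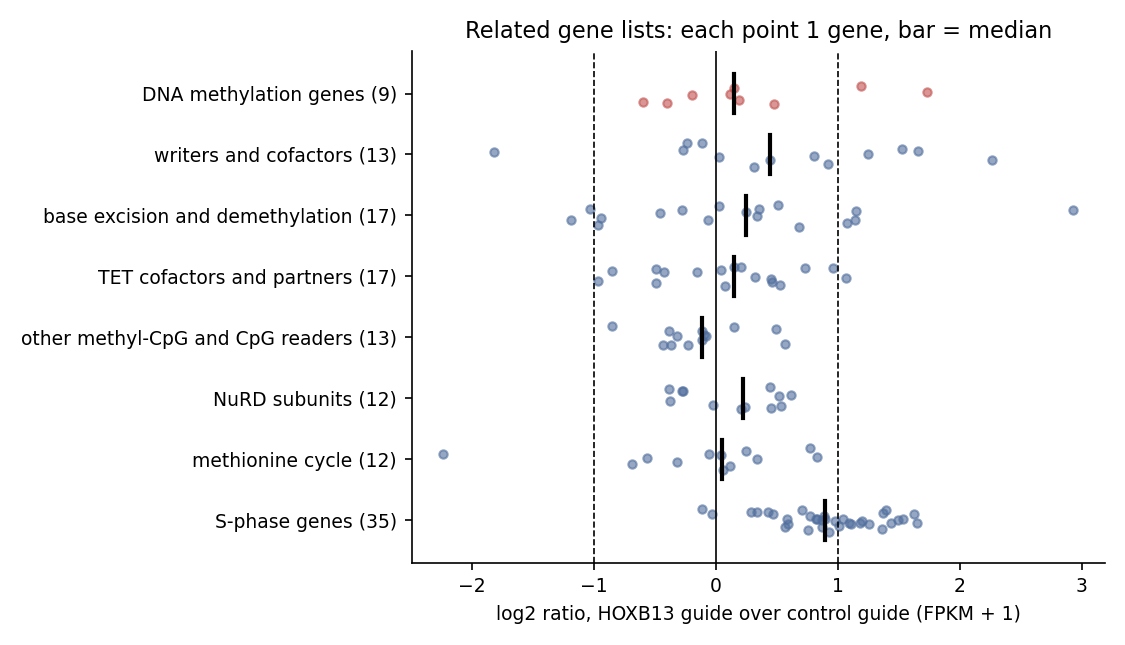
Log2 ratio, HOXB13 guide over control guide, on FPKM + 1 (horizontal axis), for every tested gene of the 9 DNA methylation genes and of each related list, 1 point per gene, with the median as a black bar and the number tested in parentheses (vertical jitter carries no value). The replication list has a median of 0.89 and the other lists have medians between −0.11 and 0.44, with APOBEC3B at 2.93 and AHCYL2 at −2.23 as the outermost points.

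Germline genes, whose promoters are methylated and silent in most somatic cells, were near absent from both libraries. Of 31 such genes in the tables, 19 were listed at 0 in both libraries and none reached 1 FPKM in either, so none was tested. Their summed level was 1.58 FPKM with the HOXB13 guide and 1.92 FPKM with the control guide. The germ-cell genes DAZL and DDX4 were listed at 0 in both libraries, and the highest values were those of PIWIL1, at 0.787 FPKM with the HOXB13 guide and listed at 0 with the control guide, and SYCP3, at 0.559 FPKM with the HOXB13 guide and 0.685 FPKM with the control guide. DAZL, DDX4, PIWIL1 and SYCP3 were named after their values were seen. DNMT3L, a germline cofactor of DNMT3A without catalytic activity that stands on the list of partners and was named in the same way, had 1.36 FPKM with the HOXB13 guide and 0.249 FPKM with the control guide.

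Among the 3 genes nearest to UHRF1, by distance between log2(FPKM + 1) values, were the CDK inhibitor gene CDKN2C and the heat shock gene HSPA1B, which shares reads with HSPA1A. They had 30.8 and 32.4 FPKM with the HOXB13 guide and 9.52 and 10.7 FPKM with the control guide. Those nearest to DNMT3B were the cholesterol exporter gene ABCA1, the kinase gene CDK18 and SLFN12, with 10.5, 11.7 and 11.6 FPKM with the HOXB13 guide and 4.46, 4.18 and 4.07 FPKM with the control guide. With 2 libraries this likeness rests on 2 values per gene. Of the 9 loci, 3 hold a short RNA gene (MIR1301 in DNMT3A, MIR4747 in UHRF1 and SNORA37 in MBD2), each listed at 0 in both libraries.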

How the data were processed

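The authors deposited 1 FPKM table per library, each with 25001 rows that give a symbol, its hg19 coordinates and 1 value, without counts. Bowtie, TopHat and Cufflinks were used with hg19, per the submitters' processing notes; settings and strand mode are not given in the sources used here, so sense and antisense reads at the same place cannot be separated. Per the labels' protocols, ribosomal RNA was depleted. FPKM deposited as 0.001 was read as 0, failed estimates (none among the 9 genes) were left out, rows sharing a symbol were summed, and starts, which count from 0, are printed from 1.

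Genes at 1 FPKM or more in either library were tested, by log2 of FPKM + 1 over FPKM + 1, unscaled; 2-fold is a rule of size. The genes named were the 9, HOXB13, the up to 4 genes per list whose ratios were farthest from 0, the 3 nearest genes and cell type markers. A gene that this rule named is not reported here. The genes, lists and alternatives (pseudocount, scaling, filter, row handling) were chosen with earlier results of these data known.

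Of 191 single-exon genes below 0.3 FPKM, 114 fitted whole reads within 0.4% at 24.1 M reads with 203 bases subtracted from the length, the choice that gave most genes. Approximate reads for exact (Clopper-Pearson) 95% intervals used the shortest basic coding transcript of GENCODE 29, for lengths only. For DNMT3A these were 113 reads with the HOXB13 guide and 96 with the control guide, the fewest of the 9 at the lengths used. The DNMT3A length was 1775 bases and its longest coding transcript has 9501, so this order depends on the transcript chosen. The ratio step was tested on simulated data. Sequences are RefSeq's, GRCh38.p14. Versions were matplotlib 3.10.9, scipy 1.17.1, pandas 2.3.3, numpy 2.4.6 and Python 3.11.15.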

Additional observations from a re-analysis of the deposited data

How the results depend on the processing

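All 9 log2 ratios kept their direction under the 7 alternatives run (pseudocounts of 0.1 and 5 FPKM, 4 scalings, and the highest row in place of the sum of rows). UHRF1 ranged between 1.43 and 1.82, DNMT3B between 0.79 and 1.34, DNMT1 between 0.42 and 0.54, and TET3 between −0.77 and −0.30. With a pseudocount of 5 FPKM, 1 of the 9 genes was past 2-fold in place of 2, and 457 of all tested genes in place of 1049; with 0.1 FPKM the count over all genes was 1580. A larger pseudocount draws low values together by construction. The 4 scalings moved the median of all tested genes by −0.02 to 0.06, and the replication list held 14 to 16 genes at least 2-fold higher under them, against 15 as deposited, 16 with a pseudocount of 0.1 FPKM and 8 with 5 FPKM. Without a filter on low values the count was again 1049, since a gene below 1 FPKM in both libraries cannot pass 2-fold with a pseudocount of 1 FPKM, and at 5 FPKM or more it was 783. No paired analysis was possible because each group held 1 library. For the same reason no library could be left out. Equal levels lay inside the counting intervals of DNMT3A, TET2 and MBD2, which rest on the shortest coding transcript as well as on depth. Those transcripts have 1775, 4973 and 1182 bases, against 9501, 10166 and 5188 for the longest of each gene. A longer transcript would give more reads and a narrower interval, which was not computed.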
